A study of Mus musculus with 6 samples.

Results

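The genes described here are 38 genes of DNA replication and S phase, taken by symbol from a list. They cover the factors that license and fire replication origins, the MCM helicase, the replicative polymerases with their clamp and clamp loader, the enzymes that make deoxynucleotides, and proteins of S phase entry and of newly made chromatin. A value was obtained for 36 of them, among 22180 genes measured in all. Rfc4 and Ccne2 lay only in probe sets that carry several gene symbols, Rfc4 with Eif4a2 and Ccne2 with Ints8, and were given no value.

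The study measured total RNA on Affymetrix arrays along the conversion of mouse fibroblasts into induced parvalbumin (iPV) neurons, with 1 array in each of 6 groups. The groups were iPV cells at day 3, day 7 and day 14 after induction, iPV cells at day 14 sorted for green fluorescence (sorted cells), a sample labelled as endogenous parvalbumin (PV) neurons (the PV-labelled array), and uninduced mouse embryonic fibroblasts (MEF), the starting cells. All 6 samples are given as PV-GFP transgenic, of strain C57BL/6, from embryos of 13.5 days. The transgene marks parvalbumin neurons, fast-spiking inhibitory neurons of the brain, with green fluorescent protein. Induction was by adenovirus, and the same infection text stands on every sample, including MEF and the PV-labelled array. No source used here says which genes the virus carried or whether animals were pooled.

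A cell copies its genome once per division. In G1 phase the origin recognition complex, Cdc6 and Cdt1 load the MCM ring onto DNA. At S phase entry Cdc45 and the GINS complex turn that ring into the active helicase, and polymerases, held on DNA by the clamp Pcna, copy both strands. Many genes for these proteins are transcribed together in late G1 under E2F factors, which the retinoblastoma protein family restrains, and they are switched off in cells that leave the cycle. Fibroblasts divide in culture, whereas neurons do not.

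Values were log2 intensities, so a difference of 1 is 2-fold. A floor was set at 5.01, the median of all probe sets other than controls, and lower values were raised to it before any difference was taken, so that a difference against a floored value understates a change. Each gene was read from 1 probe set, and levels were compared for 1 gene across arrays, never between genes. With 1 array in each group no difference has a replicate check, and no test was made. As a yardstick, the technical spread, taken from pairs of probe sets for the same gene on the same arrays, was between 0.27 and 0.50 over the 9 comparisons. It leaves out variation between cultures and animals. Of the 36 measured genes, 30 were above the floor on all 6 arrays, Orc1 and Gins1 were below it on all 6, and Cdc6, Cdc45, Fen1 and Brca1 were above it on some.

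The PV-labelled array went against its label. Of 11 measured PV and GABAergic markers, 3 or 4 were above the floor on every array, and their summed level lay between 56.5 and 58.0, the lowest on the PV-labelled array. Pvalb, which encodes parvalbumin, had 5.48 there against 5.23 in MEF, and Gad1, a GABA-synthesising enzyme, had 5.13 against 5.19. Fibroblast markers were above the floor for at least 17 of 18 genes on every array. Between the PV-labelled array and MEF their median difference was 0.02, with 4 of 18 at least 2-fold higher, among them the membrane protease Fap (1.57) and the collagen chain Col3a1 (1.21), and 2 lower, S100a4 (-2.35) and the intermediate filament gene Vim (-1.0). Of all genes, 2.13% were 2-fold higher on the PV-labelled array than in MEF and 0.969% lower. Col1a1, a fibrillar collagen chain, had 12.34 there against 12.31 in MEF. The 14 neuron markers went in several directions: their median difference from MEF was 0.10, 0.06 and 0.14 at days 3, 7 and 14, 0.58 for sorted cells and 0.02 for the PV-labelled array. Map2, a dendritic microtubule protein, had a difference of -0.97 at day 3 and -1.13 at day 14. Snap25, a synaptic fusion protein and the neuron marker with the largest difference in sorted cells, was 4.44 in MEF, then 6.00, 6.44 and 6.90 at days 3, 7 and 14, with 8.05 in sorted cells and 6.53 on the PV-labelled array. That array is therefore named by its label throughout, and the pattern below is also given without it.

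The replication genes followed an up-and-down course, high in MEF and at day 7 and lower on the other 4 arrays. Their median level was 6.45 in MEF, then 5.85, 6.44 and 5.89 at days 3, 7 and 14, with 5.79 in sorted cells and 5.67 on the PV-labelled array. MEF and day 7 were the 2 highest of the 6 arrays for 25 of the 36 genes (69.4%), against 7.74% of all genes and 6.67% of the 12600 genes whose mean reached the floor. Without the PV-labelled array they were the 2 highest of 5 for 25 genes, against 11.2% of all genes, and after housekeeping centring the 2 highest of 6 for 26, against 4.21%. The highest single array was day 7 for 18 genes and MEF for 16, but after housekeeping centring it was day 7 for 3 and MEF for 32. That centring subtracted 0.54 from each difference of day 7 from MEF, while the housekeeping genes' own median difference was 0.11. Without centring, the lowest array was the PV-labelled array for 12 genes, sorted cells for 9, day 3 for 8 and day 14 for 5. In these bulk samples fewer cells in S phase and less of these transcripts per cell cannot be told apart.

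**Figure D1:**
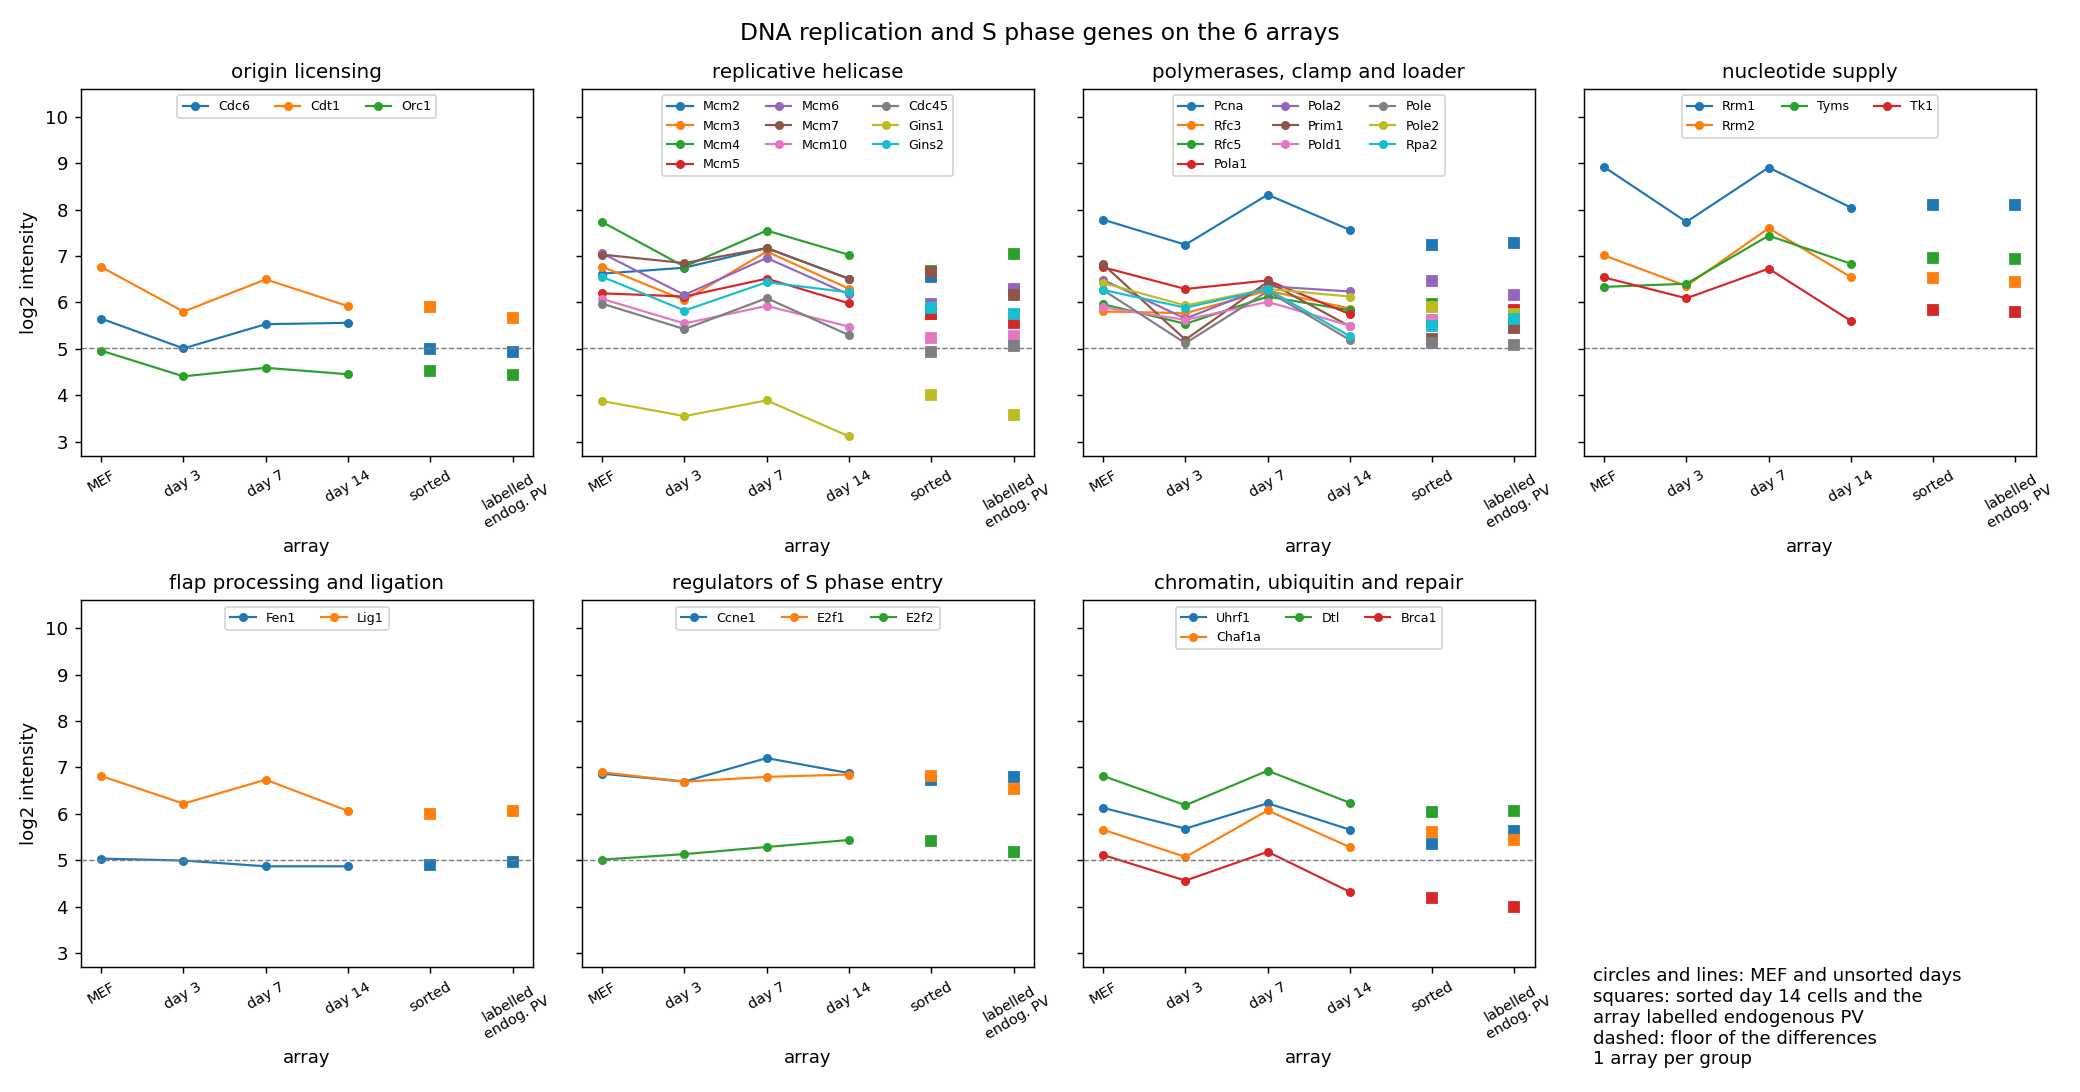
Log2 intensity (y axis) of the 36 measured replication and S phase genes on each of the 6 arrays (x axis), in 7 panels by role. Circles joined by lines are MEF and iPV days 3, 7 and 14, squares are sorted cells and the PV-labelled array, each symbol is 1 array, and the dashed line is the floor at 5.01. Most lines dip at day 3 and again at day 14, with a median of 5.85 at day 3 and 6.44 at day 7.

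Promoters were read for genes matched in RefSeq on build GRCm38.p6, from 250 bases before to 50 bases after each gene's start, for 33 of the 38 genes. The letters searched on both strands were TTTCCCGC, TTTCGCGC, TTTGCCGC and TTTGGCGC, core forms of the E2F element. An E2F-type match was found for 15 of the 33 (45.5%), against 3.26% of the 16990 array genes with a promoter. Those 15 were Orc1, Cdc6, Cdt1, Mcm3, Mcm5, Mcm6, Mcm7, Rfc3, Pola1, Pold1, Pole2, Lig1, E2f2, Uhrf1 and Dtl. Upstream matches of Orc1, Cdc6, Mcm7, Pola1, Uhrf1 and Dtl lay in stretches that overlap a RefSeq gene and are not shown. The next 3 stretches are shown because they overlap no RefSeq gene and hold such letters upstream of genes from the helicase and the clamp loader. They run 5′ to 3′ on the gene's strand, with the E2F-type letters in capitals.
Mcm5, chr8:75109336-75109387, plus strand: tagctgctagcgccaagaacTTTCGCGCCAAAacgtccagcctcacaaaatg
Mcm6, chr1:128359725-128359835, minus strand: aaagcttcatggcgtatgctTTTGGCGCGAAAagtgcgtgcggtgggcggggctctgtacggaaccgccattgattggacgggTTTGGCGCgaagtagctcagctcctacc
Rfc3, chr5:151651209-151651238, minus strand: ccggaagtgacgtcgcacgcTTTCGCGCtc
The Mcm5 stretch holds 2 overlapping matches, 1 on each strand. The Mcm6 stretch holds 3, of which the first 2 overlap, and the Rfc3 stretch holds 1, close to the start. A match is a description of letters and not evidence of binding.

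Motif content was then set beside that of other cell cycle genes. Of a list of 54 further replication genes, promoters were matched for 40, and 11 of these (27.5%) held an E2F-type match. Among 32 matched promoters of mitosis and G2/M genes, from a list of 37, 1 (3.13%) did. The CHR-type letters TTTGAA and TTCGAA, which resemble an element of late cell cycle promoters, ran the other way: 6 of 33 replication promoters (18.2%) and 23 of 32 mitotic promoters (71.9%), against 19.4% of array genes. CCAAT was found in 20 of the 33 (60.6%), in 24 of the 32 (75%), and in 41.6% of array genes. The median range over the 6 arrays was 0.88 for 15 replication genes with an E2F-type match and 1.0 for 17 without.

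**Figure D2:**
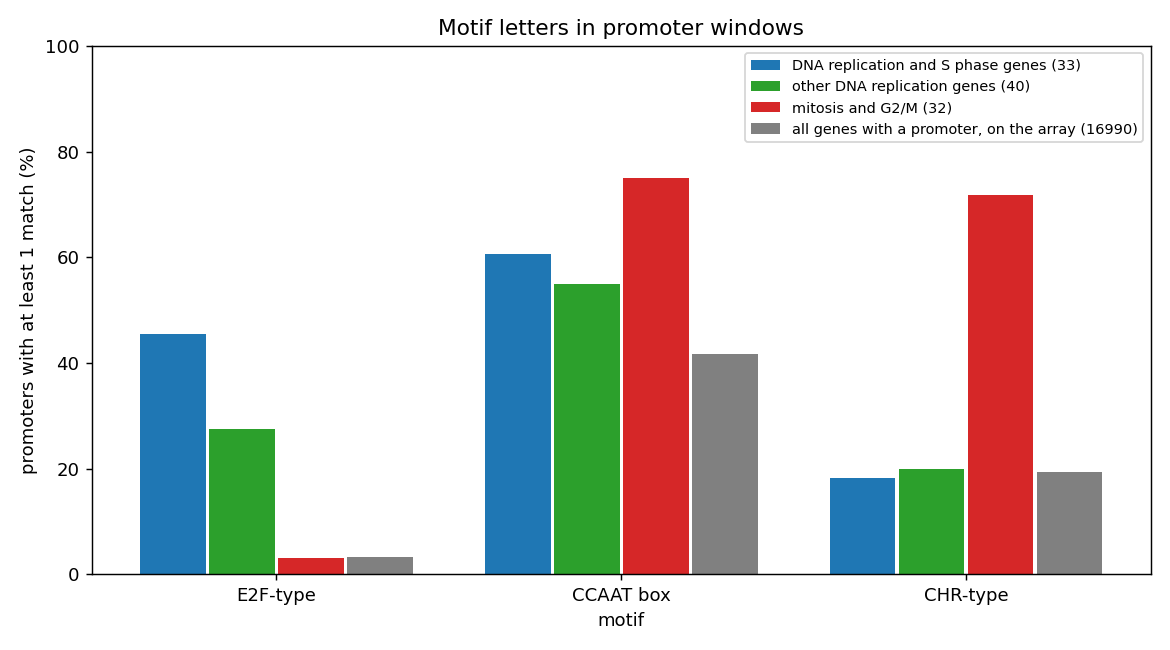
Share of promoters (percent, y axis, from 0) that hold E2F-type, CCAAT or CHR-type letters on either strand, for the replication genes, further replication genes, mitosis and G2/M genes, and all array genes with a promoter. The replication genes have the tallest E2F-type bar, at 45.5%, and the mitotic genes the tallest CHR-type bar, at 71.9%.

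Among the origin licensing and firing factors, Cdt1 had the largest difference at day 3. Cdt1, which loads MCM together with Cdc6, had 6.76 in MEF, then 5.80, 6.49 and 5.92 at days 3, 7 and 14, with 5.90 in sorted cells and 5.67 on the PV-labelled array. Cdc6, the other loader, had 5.65 in MEF, then 5.01, 5.53 and 5.56 at days 3, 7 and 14, with 4.99 and 4.93 on those last arrays, both under the floor. Its day 3 value (5.008) was also just under the floor (5.012). Cdt1 was thus lower at day 3 and at day 14, while Cdc6 at day 14 was at its day 7 level. Orc1, the large subunit of the origin recognition complex, ran between 4.41 and 4.96 and Gins1 between 3.11 and 4.0, so that neither yielded a difference. Gins2, another GINS subunit, had 6.55 in MEF, 5.82 at day 3 and 6.43 at day 7, and 5.74 to 6.22 on the other 3 arrays. Cdc45 was highest at day 7 (6.09, although -0.42 from MEF after housekeeping centring) and under the floor in sorted cells (4.94). Mcm10, which helps the helicase start, had 6.07 in MEF, then 5.55, 5.92 and 5.48 at days 3, 7 and 14.

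The 6 subunits of the MCM ring differed in how far they moved. Mcm3 had 6.77 in MEF, then 6.05, 7.10 and 6.29 at days 3, 7 and 14, with 5.75 in sorted cells and 5.65 on the PV-labelled array. Mcm6 had 7.05 in MEF, then 6.16, 6.96 and 6.17 at days 3, 7 and 14, with 5.95 and 6.30 on those arrays. Mcm4 had 7.73 in MEF, then 6.77, 7.55 and 7.02 at days 3, 7 and 14, with 6.68 in sorted cells. These 3 were between 0.72 and 0.96 lower at day 3 than in MEF. Mcm2, Mcm5 and Mcm7 differed from MEF by 0.13, -0.07 and -0.18 at day 3, each within the technical spread of 0.32 for that comparison. All 6 subunits were higher at day 7 than at day 3, by 0.32 for Mcm7 to 1.05 for Mcm3. The Mcm7 difference was within the technical spread of 0.33 for that comparison, in which housekeeping centring subtracted 0.25 from every difference. All 6 were lower at day 14 than at day 7, by 0.52 for Mcm4 to 0.80 for Mcm3.

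Among the polymerase genes, primase and the leading-strand polymerase varied most. Prim1, the catalytic primase subunit that begins each new strand, had 6.82 in MEF, then 5.20, 6.44 and 5.48 at days 3, 7 and 14, with 5.22 in sorted cells and 5.45 on the PV-labelled array. Its range of 1.62 was the largest of the 36 genes. Pole, the catalytic subunit of DNA polymerase epsilon, had 6.26 in MEF, then 5.12, 6.24 and 5.19 at days 3, 7 and 14, with 5.12 and 5.07 on the last arrays. For both genes MEF and day 7 stood well above the other 4 arrays, where the values came close to the floor. A second Pole probe set, under the floor on all 6 arrays (3.86 to 4.35), did not show this order and was highest on the PV-labelled array. Pola1, the catalytic subunit of polymerase alpha, rose less from day 3 to day 7: it had 6.76 in MEF, then 6.29, 6.47 and 5.75 at days 3, 7 and 14, with 5.57 in sorted cells and 5.84 on the PV-labelled array.

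Most genes of the clamp, the clamp loader and the accessory subunits varied less. Pcna, the sliding clamp, had 7.78 in MEF, then 7.24, 8.32 and 7.56 at days 3, 7 and 14, with 7.24 in sorted cells and 7.27 on the PV-labelled array. Its day 7 level was 0.54 above that of MEF, or -0.003 relative to it after housekeeping centring. Rpa2, a subunit of the complex that coats single-stranded DNA, had 6.27 in MEF, then 5.89, 6.28 and 5.27 at days 3, 7 and 14. Pola2, the accessory subunit of polymerase alpha, had 6.48 in MEF, 5.65 at day 3 and 6.35 at day 7, but 6.23 at day 14 and 6.45 in sorted cells, close to MEF. The clamp loader subunits Rfc3 and Rfc5 were highest at day 7, with 6.25 and 6.12 (below MEF after housekeeping centring, with -0.09 for Rfc3 and -0.37 for Rfc5), and lowest on the PV-labelled array for Rfc3 and at day 3 for Rfc5. Pold1, the catalytic subunit of polymerase delta, stayed between 5.50 and 6.01, and Pole2, an accessory subunit of polymerase epsilon, between 5.76 and 6.42.

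The 4 nucleotide-supply genes had a median difference of 1.10 at day 7 from day 3, the largest of the 7 roles, against 0.53 over all 36. Rrm1, the large subunit of ribonucleotide reductase, had 8.92 in MEF, then 7.73, 8.90 and 8.04 at days 3, 7 and 14, with 8.09 in sorted cells and 8.11 on the PV-labelled array. Rrm2, its small subunit, had 7.01 in MEF, then 6.35, 7.60 and 6.54 at days 3, 7 and 14, with 6.53 and 6.44 on those arrays. A second Rrm2 probe set lay under the floor on all 6 arrays (2.19 to 3.15). At day 7 the difference from MEF was -0.01 for Rrm1 and 0.59 for Rrm2, and after housekeeping centring -0.55 for Rrm1 and 0.05 for Rrm2. Tk1, which salvages thymidine, had 6.54 in MEF, then 6.09, 6.73 and 5.60 at days 3, 7 and 14. Tyms, which makes thymidylate, was the exception. It had 6.33 in MEF, then 6.40, 7.44 and 6.83 at days 3, 7 and 14, with 6.95 in sorted cells and 6.94 on the PV-labelled array, so that MEF was its lowest array, except after housekeeping centring, when day 3 was lower by 0.22. A further probe set that also carries the symbol of the pseudogene Tyms-ps was not used.

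Strand joining was represented by a ligase and a flap nuclease, and S phase entry by cyclin E and E2F genes. Lig1, the replicative DNA ligase, had 6.82 in MEF, then 6.22, 6.73 and 6.06 at days 3, 7 and 14. Fen1, which trims Okazaki fragment flaps, lay between 4.87 and 5.04 on its brighter probe set, and its second probe set, between 4.24 and 5.13, was higher at day 3 than in MEF where the brighter one was lower. Ccne1, the G1/S cyclin that activates Cdk2, lay between 6.69 and 7.20, and E2f1 between 6.54 and 6.90. E2f2 lay between 5.01 and 5.44, with MEF the lowest, an order that housekeeping centring turned at day 3 (-0.17), day 7 (-0.27), day 14 (-0.06) and on the PV-labelled array (-0.09), but not in sorted cells (0.08). The median difference of the cyclin E and E2F genes was -0.17 at day 3 against MEF and 0.15 at day 7 against day 3.

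Dtl, the adaptor of the ubiquitin ligase that removes Cdt1 in S phase, had 6.81 in MEF, then 6.19, 6.93 and 6.24 at days 3, 7 and 14. Uhrf1, which brings the maintenance DNA methyltransferase to newly copied DNA, had 6.13 in MEF, then 5.68, 6.23 and 5.66 at days 3, 7 and 14. Chaf1a, a subunit of the histone chaperone that packs new DNA, had 5.66 in MEF, then 5.07, 6.07 and 5.28 at days 3, 7 and 14. Each was highest at day 7, above MEF by 0.11 for Dtl, 0.10 for Uhrf1 and 0.42 for Chaf1a, against a technical spread of 0.38. Housekeeping centring turned all 3 to below MEF, with -0.43 for Dtl, -0.44 for Uhrf1 and -0.13 for Chaf1a. Brca1, of recombination repair, was above the floor in MEF (5.11) and at day 7 (5.18), and between 4.0 and 4.56 on the other 4 arrays.

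**Figure D3:**
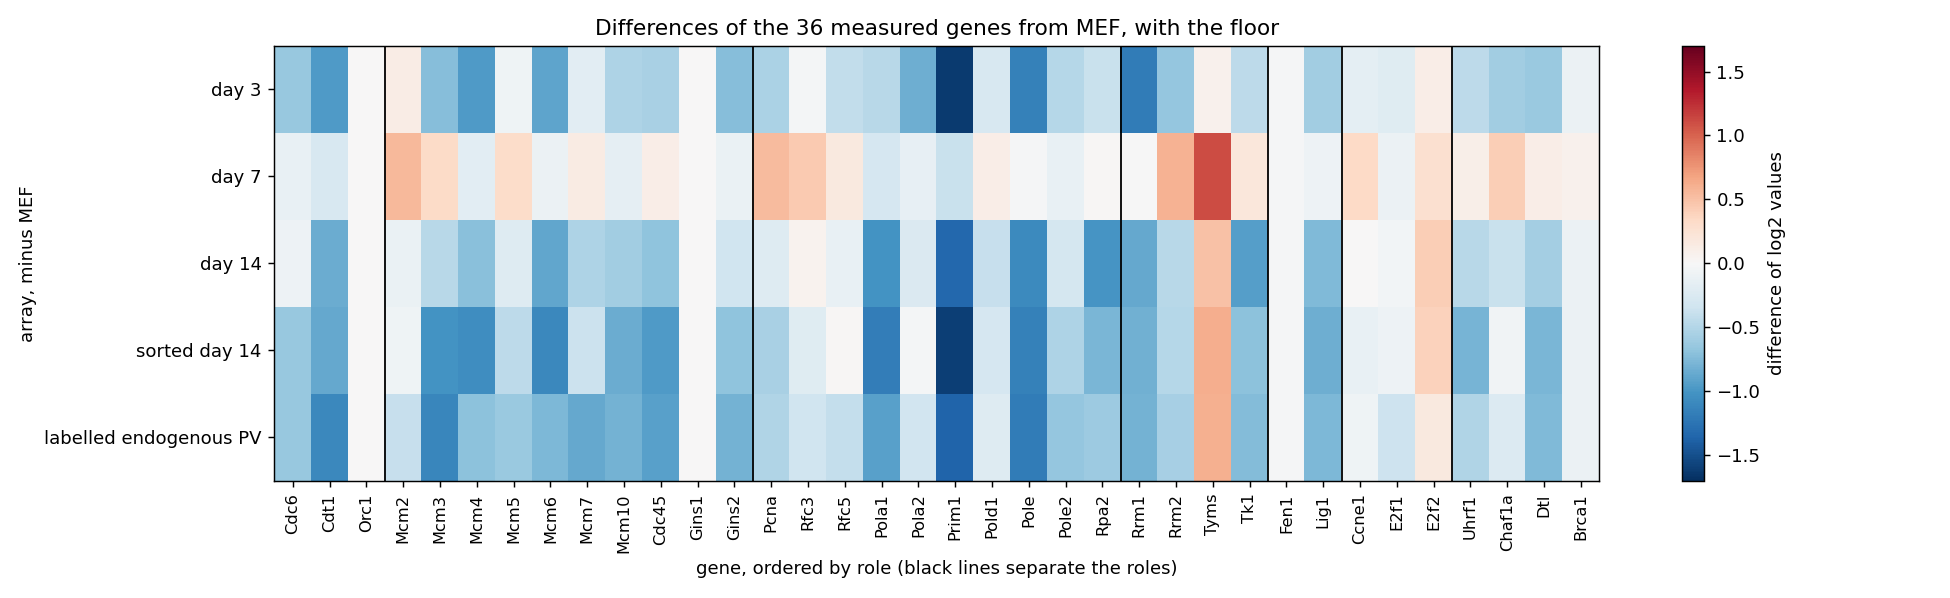
Difference of floored log2 intensity from the MEF array (colour scale) for the 36 measured genes (columns, grouped by role) on the other 5 arrays (rows). The day 7 row is near 0 for most genes, and Prim1 and Pole stand out as low on the other 4, with -1.62 and -1.14 at day 3. Tyms is above MEF in every row, though below it at day 3 after housekeeping centring (-0.22).

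Day 3, the earliest of the iPV arrays, was set against MEF. At day 3, 31 of the 36 genes were lower than in MEF, 3 were higher and 2 were equal at the floor, with a median difference of -0.48. Lower values of any size made up 28.6% of all genes and 46.3% of those whose mean reached the floor. Prim1 (-1.62), Rrm1 (-1.18) and Pole (-1.14) were at least 2-fold lower, which is 8.33% of the 36, against 1.64% of all genes and 2.83% of those whose mean reached the floor, and 0 were 2-fold higher, against 1.43% of all genes. Quantile normalization gave 5 genes lower and housekeeping centring 9, while the count over all genes went from 363 to 406 and to 767. The 3 genes above MEF were Mcm2, E2f2 and Tyms, by 0.13, 0.12 and 0.07, all within the technical spread of 0.32. These 3 were below MEF when arrays were centred on housekeeping genes, with -0.16, -0.17 and -0.22. A lower threshold of 1.5-fold gave 14 genes lower (38.9%), against 4.75% of all genes.

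From day 3 to day 7 the direction was the opposite. At day 7, 33 of the 36 genes were higher than at day 3 and 0 were lower, with a median difference of 0.53. Higher values of any size made up 30.6% of all genes and 50.1% of those whose mean reached the floor. Prim1 (1.25), Rrm2 (1.24), Rrm1 (1.17), Pole (1.12), Pcna (1.08), Mcm3 (1.05), Tyms (1.04) and Chaf1a (1.0) were at least 2-fold higher, which is 8 genes or 22.2%, against 1.3% of all genes and 2.28% of those whose mean reached the floor, and 0 were 2-fold lower, against 0.528% of all genes. At 1.5-fold, 17 were higher (47.2%), against 4.92%. The technical spread was 0.33. Chaf1a lay on the threshold, and centring on housekeeping genes, which put the median gene at or above the floor at -0.25, left 0 genes at 2-fold.

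At day 14 the genes were low once more. Set against day 7, 30 of the 36 were lower and 3 higher. The median was -0.57 and the technical spread 0.27. Lower values of any size made up 25.6% of all genes and 41.3% of those whose mean reached the floor. Tk1 (-1.12), Rrm2 (-1.05), Pole (-1.05) and Rpa2 (-1.01) were at least 2-fold lower, which is 11.1%, against 0.825% of all genes and 1.44% of those whose mean reached the floor, and 0 were 2-fold higher, against 0.604% of all genes. At 1.5-fold, 17 were lower (47.2%), against 2.9%. E2f2, E2f1 and Cdc6 were the 3 above day 7, by 0.15, 0.05 and 0.03, all within the spread. Centring on housekeeping genes left 1 of the 4 at 2-fold, while the count over all genes went from 183 to 145.

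Later arrays were also set against MEF directly, and these comparisons share the MEF array. At day 7 the median difference was 0.04 (-0.42 after housekeeping centring), with 19 genes above MEF, against 32.1% of all genes, and 15 below, against 28.5%. Many genes tie at the floor, and of the 12600 genes whose mean reached it, 6695 were above MEF and 5833 below. The members thus lay near that share. Tyms alone was 2-fold higher (1.10), and 1 of 36 (2.78%) is near the 1.7% of all genes, while 0 were 2-fold lower, against 0.843%. At 1.5-fold 2 were higher (5.56%), against 5.09%. At day 14 the median was -0.39, with a technical spread of 0.43 for that comparison. Prim1 (-1.34), Pole (-1.08) and Pola1 (-1.01) were 2-fold lower, which is 8.33%, against 1.26% of all genes, and 0 were 2-fold higher, against 2.1%. Housekeeping centring gave 14 lower and a median of -0.86, while the count over all genes went from 279 to 1084. At 1.5-fold, 12 were lower (33.3%), against 4.22%. Rpa2, at -1.0, just missed the threshold. Tyms was 0.50 above MEF at day 14, or 0.02 after housekeeping centring.

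Sorted cells were also set against unsorted day 14 cells. Between sorted cells and unsorted day 14 cells 0 genes were 2-fold lower, against 0.609% of all genes, and 0 were 2-fold higher, against 1.26%, and at 1.5-fold both counts were also 0, against 2.96% lower and 4.94% higher. For 36 genes, 2-fold counts of 0 are near these shares. By any size, 22 of the 36 genes were lower, 10 were higher and 4 were equal. Of the 12600 genes whose mean reached the floor, 5878 were lower and 6562 higher. The median difference was -0.05. Its extremes were Cdc6 (-0.55), Mcm3 (-0.54) and Chaf1a (0.32), with a technical spread of 0.33. The 14 neuron markers had a median of 0.53 on the same arrays, with 3 at least 2-fold higher, Tubb3 (1.39), Snap25 (1.15) and Map2 (1.12), and Stmn2 the lowest (-0.57).

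Against MEF, sorted cells had a median of -0.53, with a technical spread of 0.50 for that comparison. Of the 36 genes 31 were lower, against 25.7% of all genes and 5139 of the 12600 whose mean reached the floor. Prim1 (-1.60), Pola1 (-1.18), Pole (-1.15), Mcm6 (-1.10), Mcm4 (-1.05) and Mcm3 (-1.02) were at least 2-fold lower, which is 16.7%, against 1.64% of all genes, and 0 were 2-fold higher, against 3.67%. Housekeeping centring gave 15 lower, while the count over all genes went from 364 to 796. At 1.5-fold, 17 were lower (47.2%), against 4.68%, and 1 was higher, Tyms (0.62), against 9.93%. Of the 6 genes at 2-fold, 3 were MCM subunits. The PV-labelled array had a median of -0.63 against MEF, with a technical spread of 0.42. On that array Prim1 (-1.37), Pole (-1.19), Mcm3 (-1.11) and Cdt1 (-1.10) were at least 2-fold lower, which is 11.1%, against 0.969% of all genes. None were 2-fold higher, against 2.13%. Housekeeping centring gave 14 lower, while the count over all genes went from 215 to 526. At 1.5-fold, 19 were lower there (52.8%), against 4.03%, and 1 was higher, Tyms (0.61), against 6.34%. Between sorted cells and that array 0 genes were 2-fold lower, against 1.14% of all genes, and 0 were 2-fold higher, against 1.36%. Its median was 0.00, and its extremes were Mcm4 (-0.36) and Mcm7 (0.50). The largest difference of the 36 genes over the 9 comparisons was that of Prim1 at day 3, and 0 reached 4-fold.

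**Figure D4:**
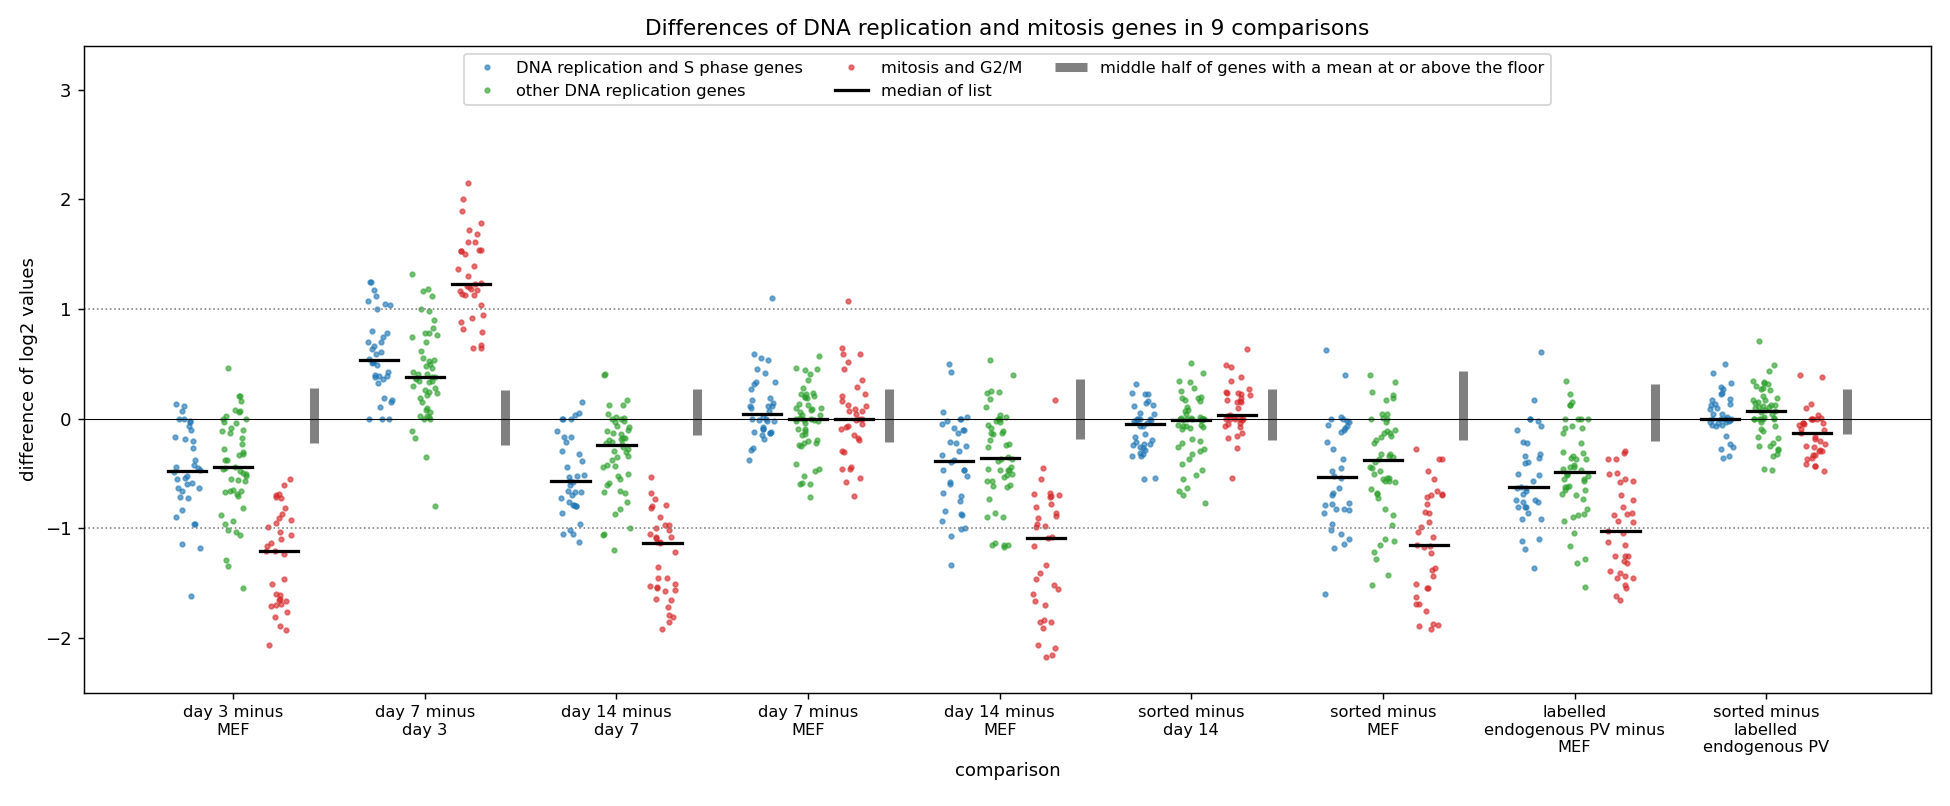
Difference of floored log2 intensity (y axis) in the 9 comparisons (x axis), 1 point per gene, for the replication genes (blue), further replication genes (green) and mitosis and G2/M genes (red). Black bars are list medians, grey boxes span the interquartile range of genes whose mean reached the floor, and dotted lines mark 2-fold. The blue median is -0.48 for day 3 minus MEF and 0.53 for day 7 minus day 3, and the red median is -1.21 and 1.23.

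The same course was larger in mitotic genes. Of 35 measured mitosis and G2/M genes, day 3 values were at least 2-fold below MEF for 23, 27 were higher at day 7 than at day 3 and 25 were lower at day 14 than at day 7, with medians of -1.21, 1.23 and -1.13. Those counts are 65.7%, 77.1% and 71.4% of the 35, against 1.64%, 1.3% and 0.825% of all genes. MEF and day 7 were the 2 highest arrays for 34 of these 35 (97.1%), against 7.74% of all genes. The range over the 6 arrays reached 2-fold for 31 of the 35 mitotic genes (88.6%), for 16 of the 36 replication genes (44.4%), and for 11.5% of all genes. The difference between the lists was not tested.

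Further replication genes, 50 measured of a list of 54, followed the course with smaller medians. Against MEF at day 3, the median was -0.45, and 6 genes were 2-fold lower (12%, against 1.64% of all genes) and 0 higher, against 1.43%. The 6 included Fam111a (-1.54), Atad2 (-1.34), the origin firing factor Ticrr (-1.29) and Wdhd1 (-1.06), which links polymerase alpha to the helicase. At day 7 against day 3, 5 were higher (10%, against 1.3% of all genes) and 0 lower, against 0.528%. The 5 included Chaf1b (1.32), the partner of Chaf1a, and Cdc7 (1.11), the kinase that fires origins. At day 14 against day 7, 3 were lower (6%, against 0.825% of all genes) and 0 higher, against 0.604%. The 3 were Usp1 (-1.20), Ticrr (-1.06) and the histone chaperone Asf1b (-1.05). In sorted cells against MEF the median was -0.38, and 7 were lower (14%, against 1.64% of all genes), among them Prim2 (-1.28), the partner of Prim1. MEF and day 7 were the 2 highest arrays for 32 of the 50 (64%), against 7.74% of all genes.

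Upstream regulators of S phase entry had small list medians but several members that varied. The list held 28 genes of cyclin D, cyclin-dependent kinase and E2F-RB control. At day 3 against MEF 0 were 2-fold lower, against 1.64% of all genes, and 0 higher, against 1.43%, with a median of -0.10. At day 7 against day 3, 1 was higher (3.57%, against 1.3% of all genes). It was E2f8 (1.32), an atypical E2F repressor that is itself made in S phase. At day 14 against MEF 3 were lower (10.7%, against 1.26% of all genes), E2f7 (-1.21), Skp2 (-1.04) and Rbl1 (-1.02). The range over the 6 arrays reached 2-fold for 10 of the 28 (35.7%), against 11.5% of all genes. Rbl1, the RB relative p107, had 7.23 in MEF, then 6.42, 6.97 and 6.21 at days 3, 7 and 14. Rb1 had 8.50 in MEF, then 8.57, 7.94 and 8.74 at days 3, 7 and 14, with 9.20 in sorted cells, so that its lowest array was day 7. Cdk2, the partner of Ccne1, lay between 7.21 and 7.66. Ccnd1, cyclin D1, had 9.28 at day 14 against 8.32 in MEF, and 8.16 in sorted cells.

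Macrophage markers moved with the replication genes on some arrays. Of 15 such markers, the floor was passed by 12 in MEF, then 8, 11 and 12 at days 3, 7 and 14, 5 in sorted cells and 13 on the PV-labelled array. Their summed level was 94.8 in MEF, then 79.1, 86.2 and 85.5 at days 3, 7 and 14, 79.1 in sorted cells and 99.6 on the PV-labelled array. At day 3 against MEF 7 of the 15 were at least 2-fold lower (46.7%, against 1.64% of all genes), with the largest differences for Lyz2 (-3.01), Fcer1g (-2.52), Adgre1 (-2.04) and Cd68 (-1.92). Ptprc, the pan-leukocyte marker CD45, was under the floor on all 6 arrays, and Csf1r, the macrophage growth factor receptor, was 5.14 at day 3 against 5.78 in MEF. The array with the highest macrophage sum had the lowest median of replication genes. The part of these cells in the result was not tested.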

How the data were processed

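The authors deposited 1 table of log2 intensities for 41345 probe sets, made with Affymetrix Expression Console, per the submitters' processing notes. Its version, its normalization and the genome build were not given in the sources used here. The log2 scale was read from the values. Biotin-labelled RNA was made from 6 µg total RNA per sample, per the labels. The 5333 control probe sets were left out. A gene was represented by its single-symbol probe set with the highest mean over 6 arrays, named by the platform annotation.

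From these values, differences of floored log2 intensities were computed (floor 5.01) and called at 2-fold, with pandas 2.3.3 and numpy 2.4.6, and the calculation was tested on simulated data. Gene members, lists, thresholds and comparisons were chosen with earlier results of these data known. Named were all members, up to 4 genes of each other list with the largest difference in a comparison, and a few preset control genes. Of genes other than members, only some are printed. Promoters came from RefSeq, build GRCm38.p6. Having 1 array in each group limits the precision. Alternatives were quantile normalization, housekeeping centring, the mean of probe sets, no floor, a floor at percentile 75, and 4-fold, with 1.5-fold and a floor set without the PV-labelled array added after seeing the data.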

Additional observations from a re-analysis of the deposited data

How the results depend on the processing

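With 1 array per group, no replicate could be left out, and signal near background limits Orc1, Gins1, Fen1 and Brca1. No paired analysis was possible because each group has 1 array. Quantile normalization raised the genes 2-fold lower at day 3 against MEF to 5, and taking the mean of probe sets left 2 lower at day 14 against day 7. Housekeeping centring gave 9 lower at day 3 against MEF, 1 at day 14 against day 7 and, each against MEF, 14 at day 14, 15 for sorted cells and 14 for the PV-labelled array. It gave 0 higher at day 7 against day 3 and 0 against MEF, turned the median of day 7 against MEF to -0.42, and moved that of day 14 against MEF to -0.86. It also put the median gene at or above the floor at -0.26 at day 3, -0.51 at day 7, -0.39 at day 14, and -0.21 for sorted cells and for the PV-labelled array, each against MEF. Over all genes, centring raised counts 2-fold below MEF to 767 from 363 at day 3 and to 1084 from 279 at day 14. For sorted cells that count rose to 796 from 364, and for the PV-labelled array to 526 from 215. With the floor at percentile 75 the medians were 0 in all 9 comparisons. The counts lower than MEF were then 1 at day 3, 0 at day 14, 1 for sorted cells and 0 for the PV-labelled array, with 1 lower at day 14 than at day 7, and the counts higher were 3 at day 7 against day 3 and 0 at day 7 against MEF. This floor lies above many of the genes' own levels, so fewer could differ. At 4-fold all counts were 0. At 1.5-fold, chosen after seeing the data, 14 genes were lower at day 3 against MEF, 17 at day 14 against day 7 and, each against MEF, 12 at day 14, 17 for sorted cells and 19 for the PV-labelled array. At that threshold 17 were higher at day 7 against day 3 and 2 at day 7 against MEF, with 1, Tyms, for sorted cells and for the PV-labelled array against MEF. Without the PV-labelled array in the floor and choice of probe sets, and with no floor, every count stayed within 1.5 times its value. The share of all 2-fold calls that were higher, over all genes, moved under housekeeping centring to 19.9% from 46.7% at day 3 against MEF, to 28.5% from 71.1% at day 7 against day 3, to 52.6% from 42.3% at day 14 against day 7 and to 84.6% from 67.5% in sorted against unsorted cells. Against MEF it moved to 10.1% from 66.8% at day 7, to 14.6% from 62.6% at day 14, to 35.5% from 69.1% in sorted cells (57.7% with quantile normalization) and to 33.8% from 68.8% on the PV-labelled array. Centring subtracted the difference between the arrays' housekeeping medians, which was 0.29 at day 3, 0.54 at day 7 and 0.48 at day 14, against MEF. Taken gene by gene, the median difference of the 25 housekeeping genes was 0.07, 0.11 and 0.27. In these comparisons centring thus lowered every gene by more than the median housekeeping difference. In sorted against unsorted cells it subtracted -0.16, where that median was -0.23. Why the 2 measures differ was not tested.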

Other observations

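Genes of the CDK inhibitors and p53 response were measured for 18 of a list of 20. At day 14, 14 of the 18 were higher than at day 7, against 7651 of the 22180 genes and 7294 of the 12600 whose mean reached the floor. Against day 7, 5 were at least 2-fold higher (27.8%, against 0.604% of all genes) and 1 was lower (5.56%, against 0.825%), with a median of 0.44. Cdkn1a, which encodes the CDK inhibitor p21, had 10.43 in MEF, then 10.85, 10.48 and 11.09 at days 3, 7 and 14, with 11.35 in sorted cells and 10.88 on the PV-labelled array. MEF and day 7 were thus its lowest arrays. Mdm2, a p53 target that restrains p53, was 1.28 higher at day 14 than at day 7. Cdkn1c, the inhibitor p57, was 1.36 higher at day 3 than in MEF and 1.51 lower on the log2 scale at day 14 than at day 7. Cdkn2c, the inhibitor p18, had 5.85 in MEF, then 5.0, 6.06 and 5.15 at days 3, 7 and 14. The list median against MEF was 0.19 at day 3 and 0.46 at day 14, and housekeeping centring turned these to -0.10 and -0.01.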
